A study of Mus musculus with 18 samples.

Results

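The SLC25 family, the mitochondrial solute carriers, was described across the apex of mouse hearts in which Lmna shRNA had been delivered, alone or with a lamin. Members were taken by name: every protein-coding row of the deposited count table whose symbol starts with Slc25a and a number. The rule found 47 genes among 54532 rows, 22046 of them protein-coding. Of the 47 carriers, 43 passed the filter on low counts, which 17876 of all genes passed.

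Each of the 6 groups held 3 hearts of wild-type genotype (WT), and the study's stated delivery vehicle was rAAV9, a recombinant adeno-associated virus. Batch LC comprised hearts given Lmna shRNA with lamin C, hearts given Lmna shRNA alone, and controls. Batch LA comprised hearts given Lmna shRNA with lamin A, hearts given Lmna shRNA alone, and controls of its own. The study set out to compare lamin A and lamin C as additions in a dilated cardiomyopathy made by lowering Lmna. The sources used here give no strain, age, sex, dose or time after injection, nor what the controls received. Lamin C was tested only in batch LC and lamin A only in batch LA, so lamin isoform and batch cannot be told apart in a comparison of the 2 lamins.

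Solute carriers of this family sit mostly in the inner mitochondrial membrane and exchange metabolites between the matrix and the cytosol. They are encoded by nuclear genes, made in the cytosol without a cleavable signal in most cases, and inserted through the TOM70 and TIM22 import route. In heart muscle, ADP/ATP carriers export the ATP made by ATP synthase, the phosphate carrier supplies its phosphate, and the acylcarnitine carrier admits the fatty acids that are the main fuel. The aspartate/glutamate and oxoglutarate carriers complete the malate-aspartate shuttle, which moves reducing equivalents into the matrix.

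Libraries held 31418657 to 41259968 counts. Lmna, the targeted gene, stood at 137, 134 and 115 CPM (counts scaled to a common library size after TMM) in the labelled shRNA hearts of batch LC, against 122, 128 and 120 CPM in controls. Batch LA gave 127, 122 and 130 CPM in its labelled shRNA hearts, against 120, 120 and 112 CPM in controls. Lmna message of the whole apex was therefore not lower where the shRNA was labelled (edgeR quasi-likelihood test, log2 fold change 0.06 ± 0.08 SE, adjusted p = 0.578, and 0.11 ± 0.08, adjusted p = 0.258). These groups are called hearts labelled Lmna shRNA below. The libraries hold all cells of the apex, so Lmna in cardiomyocytes alone was not measured. With lamin C, Lmna stood at 1060 to 1370 CPM, and with lamin A at 501 to 556 CPM. All 10 cardiomyocyte markers were present, with a summed level of 25200 to 27100 FPKM (the authors' fragments per kilobase of gene, scaled to library depth) in controls. The third control of batch LC stood apart in the clock gene Arntl, at 26.2 CPM beside 0.751 and 1.37 CPM in its 2 companions and 1.28 to 5.73 CPM in the other libraries of batch LC. The libraries of batch LA held 21.4 to 35.7 CPM, so in this gene that control lay within the range of batch LA. It also stood apart in 3 carriers: in Slc25a29 and Slc25a33 it lay within the range of the batch LA controls, and in Slc25a36 above it. Without it, 30 carriers in place of 31 were called for labelled shRNA in batch LC, and 10 in place of 11 for lamin C against control. The labels number the third controls of the 2 batches consecutively, and apart from the other hearts of their batch. What these numbers stand for is not stated. Nothing in the labels says whether hearts of a group came from separate litters or injections, so p-values measure the spread between these libraries.

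In control hearts, 1 carrier made up most of the family's message. Slc25a4, the ADP/ATP carrier of heart and skeletal muscle (ANT1), averaged 2083 FPKM over the 6 controls, which was 65.7% of the summed FPKM of the 47 members. The phosphate carrier Slc25a3 followed with 283 FPKM (8.93%), the oxoglutarate/malate carrier Slc25a11 with 222 FPKM (7.01%) and the widely expressed ADP/ATP carrier Slc25a5 (ANT2) with 159 FPKM (5.01%). Slc25a34, whose substrate is not settled, was next with 82.4 FPKM, ahead of the aspartate/glutamate carriers Slc25a13 (citrin, 49.9 FPKM) and Slc25a12 (aralar, 33.4 FPKM) and the acylcarnitine carrier Slc25a20 (38.2 FPKM). At the low end, Slc25a21, Slc25a41, Slc25a48 and Slc25a54 did not pass the filter, with at most 8 counts in any library. Slc25a41, an ATP-Mg/phosphate carrier, had 0 counts in all 6 controls, and 1, 3 and 8 counts in the labelled shRNA hearts of batch LC and 1, 6 and 4 in those of batch LA. Against 3 counts as the floor, equal to 0.0622 to 0.108 CPM, only 3 of these 6 values rise above it.

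In hearts labelled Lmna shRNA, most carriers were lower than in controls, and a smaller group was higher. In batch LC, 25 of the 43 tested carriers fell (58.1%, where 29.6% of all genes tested fell) and 6 rose (14%, against 33.3% of all genes). In batch LA, 26 fell (60.5%, against 29% of all genes) and 8 rose (18.6%, against 32.4%). The median log2 fold change of the carriers was -0.50 in batch LC and -0.39 in batch LA, beside 0.05 for all genes in both. The 2 batches share no library: 25 carriers fell in both (25.7% of all genes did), 5 rose in both (28.5% of all genes) and 8 passed the test in neither (29.9% of all genes). A call here is an adjusted p under 0.05 in edgeR's quasi-likelihood test over all 17876 genes.

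These counts depend on how libraries were scaled. The main values use TMM, which centres the bulk of genes. When each library was scaled to its deposited total instead, the median of all genes moved to 0.47 in batch LC and 0.48 in batch LA. The split became 15 carriers higher and 17 lower in batch LC, and 15 higher and 15 lower in batch LA. The shares of all genes called each way on library totals are not given, here or below. These splits therefore cannot be read against all genes. Of the 31 carriers called in batch LC, 23 kept their call and direction on library totals, as did 23 of the 34 called in batch LA. The folate carrier Slc25a32 and the iron carrier Slc25a37, lower under TMM by 0.15 to 0.26 on the log2 scale, became higher in both batches. Calls gained on library totals were all rises: Slc25a5, Slc25a17, Slc25a23, Slc25a40, Slc25a43, Slc25a44 and Slc25a53 in batch LC, and Slc25a17, Slc25a30, Slc25a40, Slc25a44 and Slc25a53 in batch LA. Slc25a15, Slc25a27, Slc25a28, Slc25a35 and Slc25a39 lost their call in both batches, Slc25a16 in batch LC, and Slc25a10, Slc25a38, Slc25a47 and Slc25a51 in batch LA. The falls of Slc25a3, Slc25a4, Slc25a11, Slc25a12, Slc25a13, Slc25a20, Slc25a22, Slc25a26, Slc25a29, Slc25a33, Slc25a34, Slc25a42 and Slc25a46 were among those that kept theirs in both. In bulk tissue fewer cardiomyocytes and less of a message per cardiomyocyte cannot be told apart.

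**Figure D1:**
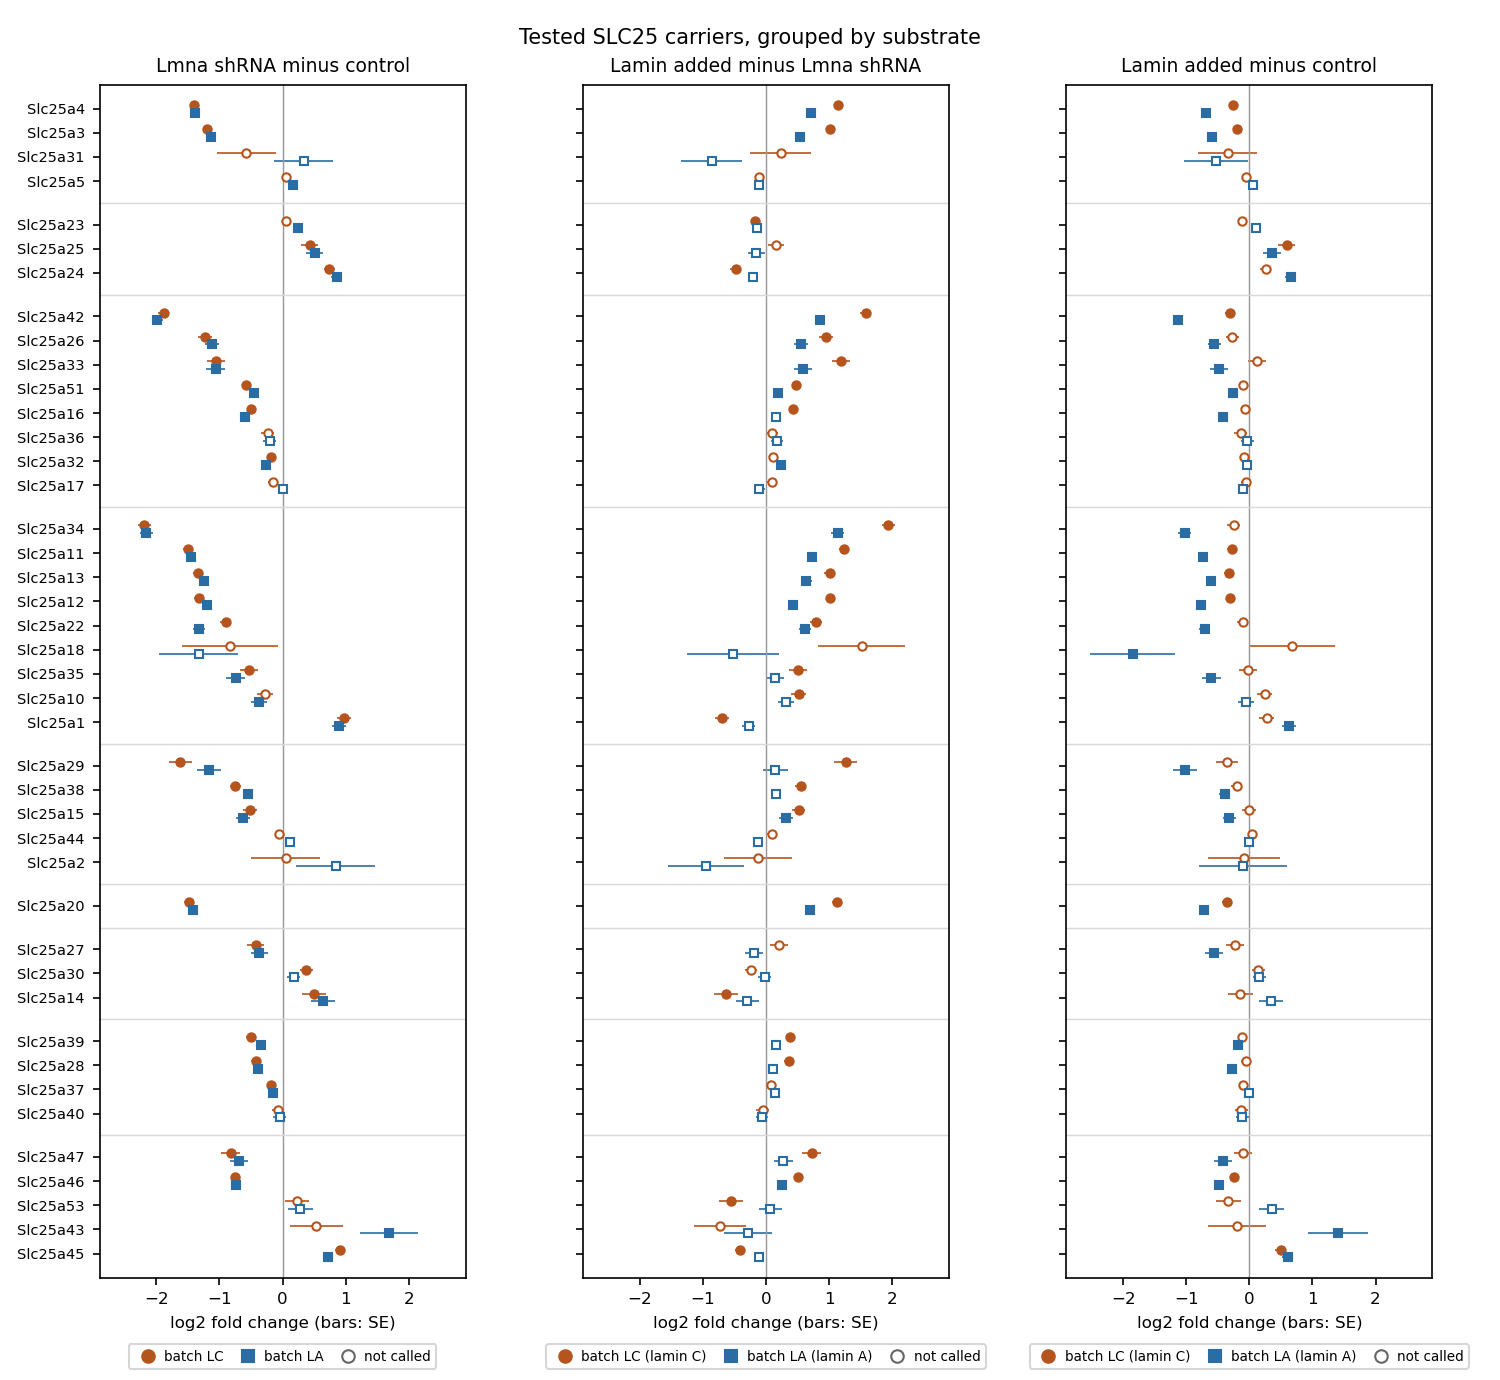
Log2 fold change (x axis; bars are SE, n = 3 libraries a group) of tested carriers (rows, grouped by substrate) for Lmna shRNA minus control, lamin added minus Lmna shRNA, and lamin added minus control; circles are batch LC, squares batch LA, filled where the adjusted p was under 0.05. In the left panel circles and squares lie close together, from about Slc25a34 at -2.19 and -2.16 to Slc25a1 at 0.97 and 0.90, and in the right panel most squares lie left of the circles.

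The main ADP/ATP carrier and the phosphate carrier fell in both batches. Slc25a4 (chr8:46206797-46211284, minus strand, mm10) had 1995, 1958 and 1767 CPM in labelled shRNA hearts of batch LC, against 5144, 4806 and 5228 CPM in controls. In batch LA it had 1970, 1936 and 1774 CPM in labelled shRNA hearts, against 4857, 4915 and 5088 CPM in controls. No labelled shRNA library came within reach of a control, and the fall was 1.41 ± 0.06 on the log2 scale in batch LC (-1.41, adjusted p = 1e-12) and 1.39 ± 0.06 in batch LA (-1.39, adjusted p = 1.48e-12). Slc25a3, which carries phosphate into the matrix, had 706, 750 and 662 CPM in labelled shRNA hearts of batch LC, against 1695, 1577 and 1609 CPM in controls. Its log2 fold change was -1.20 ± 0.06 in batch LC (adjusted p = 4.7e-12) and -1.14 ± 0.06 in batch LA (adjusted p = 1.08e-11).

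Slc25a5 (chrX:36795651-36798807, plus strand), the other ADP/ATP carrier, showed no such fall, and on library totals it was called higher in both batches (0.49, adjusted p = 6.58e-07, and 0.60, adjusted p = 4.2e-08). It had 290, 283 and 272 CPM in labelled shRNA hearts of batch LC, against 261, 267 and 281 CPM in controls, with overlapping ranges. The log2 difference there was 0.06 (95% interval -0.08 to 0.20, adjusted p = 0.44). Batch LA gave 315, 298 and 272 CPM in labelled shRNA hearts, against 256, 278 and 258 CPM in controls, and the ranges again overlapped. That difference of 0.16 ± 0.07 passed the test (adjusted p = 0.0443) but no longer did under DESeq2 (adjusted p = 0.058) or without control 1 (0.165), control 3 (0.137), labelled shRNA heart 1 (0.207) or labelled shRNA heart 2 (0.101) of that batch. Slc25a31, the ADP/ATP carrier known from testis, stayed at 3 to 27 counts a library and was called in no comparison.

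The ratio of the 2 main ADP/ATP carriers within a library does not depend on how libraries are scaled. Slc25a4 exceeded Slc25a5 in FPKM 4.81, 4.83 and 4.55 times in labelled shRNA hearts of batch LC, against 13.8, 12.6 and 13.0 times in controls. The batch LA values were 4.37, 4.55 and 4.56 times in labelled shRNA hearts, against 13.3, 12.4 and 13.8 times in controls. The groups did not overlap in either batch (exact two-sided permutation test, p = 0.1 in each, the smallest that 3 against 3 can give). With lamin C the ratio was 11.5, 11.2 and 11.4, and with lamin A 8.06, 8.26 and 7.39. Both lamin groups lay above the labelled shRNA hearts and below the controls of their batch without overlap.

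**Figure D2:**
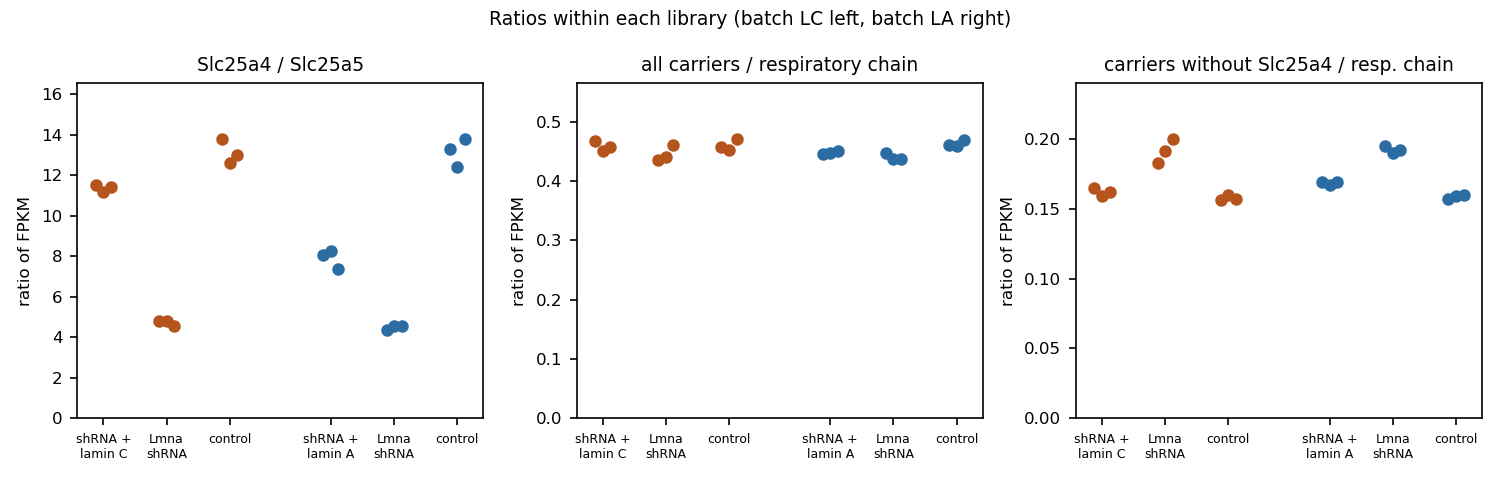
Ratios of FPKM within each library (points, 3 a group; batch LC left and batch LA right in each panel): Slc25a4 over Slc25a5, all 47 carriers over 22 nuclear-encoded respiratory chain genes, and the carriers without Slc25a4 over the same genes. The first ratio is 4.37 to 4.83 in hearts labelled Lmna shRNA and 12.4 to 13.8 in controls, the second spans 0.435 to 0.471 over all 18 libraries, and the third is highest in hearts labelled Lmna shRNA.

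Slc25a34 and Slc25a42 had the deepest falls among the 43 tested carriers. Slc25a34 had 45.9, 54.1 and 41.8 CPM in labelled shRNA hearts of batch LC, against 221, 214 and 213 CPM in controls. The values of batch LA were 59.8, 48.4 and 48.6 CPM in labelled shRNA hearts, against 232, 235 and 234 CPM in controls. Its log2 fold changes of -2.19 ± 0.10 and -2.16 ± 0.10 (adjusted p = 1.43e-12 and 1.92e-12) passed the test in both batches. Slc25a42, which exchanges coenzyme A for adenine nucleotides, had 24.5, 30.3 and 22.0 CPM in labelled shRNA hearts of batch LC, against 96.2, 96.6 and 90.5 CPM in controls. Batch LA gave 25.4, 23.5 and 25.3 CPM in labelled shRNA hearts, against 101, 94.8 and 97.3 CPM in controls. Its log2 fold changes were -1.88 ± 0.09 and -1.98 ± 0.09 (adjusted p = 1.07e-12 and 8.72e-13).

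Because these carriers moved together, the 250 bases before the RefSeq start of each gene (GRCm38.p6, the assembly behind mm10) were read for 36 of the 47 members that have an entry. Those of 5 genes are printed 5′ to 3′: the 2 deepest falls, the phosphate carrier, and 2 that moved opposite ways while holding the same motif. Bases inside the gene as the deposited table bounds it are left off. Capitals mark a match to 1 of the 4 motifs searched.
Slc25a34 (chr4:141623835-141624084, minus strand): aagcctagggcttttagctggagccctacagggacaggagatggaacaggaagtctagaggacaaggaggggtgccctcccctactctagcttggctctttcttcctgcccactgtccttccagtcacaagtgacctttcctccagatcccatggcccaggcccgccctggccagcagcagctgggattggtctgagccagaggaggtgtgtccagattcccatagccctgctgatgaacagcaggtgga
Slc25a42 (chr8:70212306-70212531, minus strand): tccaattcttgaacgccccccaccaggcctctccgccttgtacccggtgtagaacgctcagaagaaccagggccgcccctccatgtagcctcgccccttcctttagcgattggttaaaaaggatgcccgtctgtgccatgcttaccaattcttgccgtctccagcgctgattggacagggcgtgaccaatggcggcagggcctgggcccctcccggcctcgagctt
Slc25a3 (chr10:91124060-91124217, minus strand): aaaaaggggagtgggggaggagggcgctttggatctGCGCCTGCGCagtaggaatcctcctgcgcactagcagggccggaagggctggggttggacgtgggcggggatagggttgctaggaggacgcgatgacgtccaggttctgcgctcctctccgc
Slc25a13 (chr6:6217174-6217423, minus strand): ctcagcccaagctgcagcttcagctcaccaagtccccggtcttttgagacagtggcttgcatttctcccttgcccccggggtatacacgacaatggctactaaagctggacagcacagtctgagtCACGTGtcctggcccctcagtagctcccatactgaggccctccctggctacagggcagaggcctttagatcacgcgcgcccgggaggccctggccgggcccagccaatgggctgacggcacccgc
Slc25a1 (chr16:17928220-17928469, minus strand): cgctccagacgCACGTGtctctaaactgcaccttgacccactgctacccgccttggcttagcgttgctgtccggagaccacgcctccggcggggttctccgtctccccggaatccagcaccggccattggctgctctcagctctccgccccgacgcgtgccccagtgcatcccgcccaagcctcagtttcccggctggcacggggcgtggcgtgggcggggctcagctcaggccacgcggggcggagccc

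The motifs were searched on both strands in the full 250 bases. The NRF1 element (GCGCA, any base, then GCGC) lay in 2 of the 36 members' windows (5.56%, Slc25a3 and Slc25a31), beside 5.5% of 16491 protein-coding genes. CACGTG, the E-box, lay in 6 (16.67%), beside 6.81% of all: Slc25a13 and Slc25a33 among those that fell in both batches, Slc25a1 and Slc25a14 among those that rose in both, and Slc25a31 and Slc25a36. TNAAGGTCA, the element of estrogen-related receptors, and TGATGNAA, an ATF4-type element, lay in 0 of 36 windows, beside 0.95% and 3.06% of all genes. None of the 4 overlapped another in the windows printed. A match here describes letters in a window and nothing about binding.

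The carriers of the malate-aspartate shuttle fell with them. Slc25a11, which exchanges oxoglutarate for malate, had 176, 190 and 149 CPM in labelled shRNA hearts of batch LC, against 499, 487 and 476 CPM in controls. Its log2 fold changes were -1.51 ± 0.08 in batch LC and -1.46 ± 0.08 in batch LA (adjusted p = 3.06e-12 and 5.57e-12). Slc25a11 overlaps Rnf167 on the other strand, and the labels do not say if reads were counted by strand. Slc25a12 and Slc25a13, which export aspartate for glutamate, gave -1.32 ± 0.07 and -1.34 ± 0.08 in batch LC, and -1.20 ± 0.07 and -1.25 ± 0.08 in batch LA. Both had every labelled shRNA library below every control.

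The other substrate carriers of this group were split. The glutamate carrier Slc25a22 had 23.0, 24.4 and 22.7 CPM in labelled shRNA hearts of batch LC, against 42.6, 42.6 and 46.0 CPM in controls (log2 -0.90 ± 0.09, adjusted p = 6.57e-08). In batch LA it had 21.1, 26.4 and 27.3 CPM in labelled shRNA hearts, against 65.7, 62.0 and 59.4 CPM in controls (-1.32 ± 0.09, adjusted p = 2.92e-10); the controls of batch LA lay above those of batch LC, while the labelled shRNA libraries of the batches overlapped. Slc25a35, related to Slc25a34, fell by 0.53 and 0.75 on the log2 scale, and overlaps Rangrf on the other strand. The dicarboxylate carrier Slc25a10 passed the test in batch LA (-0.37 ± 0.13, adjusted p = 0.0158), although not without control 1 or labelled shRNA heart 1, and in batch LC had -0.28 ± 0.13 (adjusted p = 0.062). The second glutamate carrier, Slc25a18, was at 1 to 15 counts a library and lies over Atp6v1e1, a far more abundant gene on the other strand.

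The citrate carrier went the other way. Slc25a1, which exports citrate for lipid synthesis, had 10.4, 11.4 and 11.9 CPM in labelled shRNA hearts of batch LC, against 4.90, 6.18 and 6.09 CPM in controls. The libraries of batch LA held 12.4, 11.6 and 13.3 CPM in labelled shRNA hearts, against 6.21, 7.05 and 6.74 CPM in controls. Every labelled shRNA library lay above every control, with log2 fold changes of 0.97 ± 0.11 and 0.90 ± 0.11 (adjusted p = 3.63e-07 and 8.03e-07), the largest rise in each batch among carriers that reached 5 CPM.

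The carrier that brings fatty acids through the inner membrane fell too. The acylcarnitine carrier Slc25a20 had 63.2, 72.1 and 65.8 CPM in labelled shRNA hearts of batch LC, against 181, 180 and 202 CPM in controls. For batch LA the values were 75.7, 69.4 and 67.4 CPM in labelled shRNA hearts, against 180, 186 and 205 CPM in controls. The groups lay far apart, with log2 fold changes of -1.48 ± 0.08 and -1.42 ± 0.08 (adjusted p = 4.96e-12 and 9.44e-12). Of the 5 genes of the carnitine shuttle around it, 4 fell in both batches (25.7% of all genes did) and 0 rose (28.5% of all genes rose in both). Among them were Crat, which transfers acetyl groups to carnitine (-1.62 ± 0.07 in batch LC and -1.57 ± 0.07 in batch LA), and Cpt2, which returns the acyl group to coenzyme A (-1.79 ± 0.10 and -1.70 ± 0.10). Cpt1a, the liver form of the outer enzyme, passed in neither batch (0.19 ± 0.08, adjusted p = 0.0561, and 0.08 ± 0.08, adjusted p = 0.409).

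Among the carriers of nucleotides and cofactors, 7 of 9 fell in each batch under TMM and none rose, where 29.6% and 29% of all genes fell. On library totals Slc25a17 and Slc25a32 were called higher in both batches. Beside Slc25a42, the S-adenosylmethionine carrier Slc25a26 fell by 1.22 and 1.11 on the log2 scale and the pyrimidine nucleotide carrier Slc25a33 by 1.06 in both batches. Slc25a26 overlaps Lrig1 on the other strand. The NAD carrier Slc25a51 and Slc25a16, linked to coenzyme A, moved less, with -0.57 and -0.45 for Slc25a51 and -0.49 and -0.59 for Slc25a16. Slc25a17, which works in peroxisomes, and Slc25a36, a second pyrimidine carrier, passed in neither batch. Slc25a33 and Slc25a36 are 2 of the 3 carriers in which the third control of batch LC stood apart, at 20.8 CPM beside 29.5 and 29.9 CPM for Slc25a33 and at 76.2 CPM beside 54.3 and 50.3 CPM for Slc25a36.

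The amino acid carriers were mixed. Slc25a29, a carrier of basic amino acids, had 4.23, 3.25 and 3.36 CPM in labelled shRNA hearts of batch LC, against 12.6, 13.7 and 7.23 CPM in controls, the last value being the third control. In batch LA it had 2.71, 2.95 and 3.66 CPM in labelled shRNA hearts, against 7.13, 6.40 and 7.39 CPM in controls. The groups did not overlap in either batch (log2 -1.62 ± 0.18 and -1.16 ± 0.19, adjusted p = 2.43e-07 and 2.58e-05). The glycine carrier Slc25a38 gave -0.75 and -0.55, and the ornithine carrier Slc25a15 -0.52 and -0.63, all called. The branched-chain amino acid carrier Slc25a44 had -0.05 ± 0.07 and 0.12 ± 0.07 and was called in neither batch.

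The ATP-Mg/phosphate carriers, which adjust the adenine nucleotide pool of the matrix and respond to calcium, were the group in which no member fell. Only 3 of them were tested, and 29.6% of all genes fell in batch LC and 29% in batch LA. Slc25a24 had 19.3, 18.7 and 18.7 CPM in labelled shRNA hearts of batch LC, against 11.99, 11.8 and 10.2 CPM in controls. Batch LA had 17.1, 18.7 and 19.3 CPM in labelled shRNA hearts, against 9.23, 11.1 and 9.99 CPM in controls. All labelled shRNA libraries were above all controls (0.74 ± 0.09 and 0.86 ± 0.09, adjusted p = 3.38e-07 and 5.01e-08). Slc25a25 rose by 0.43 ± 0.14 and 0.51 ± 0.14 (adjusted p = 0.00897 and 0.00318), but in batch LC not without control 3 (adjusted p = 0.0597) or labelled shRNA heart 3 (0.0756), and it overlaps Naif1 on the other strand. Slc25a23 was called higher in batch LA (0.25 ± 0.06, adjusted p = 0.00112) and had 0.05 ± 0.06 (adjusted p = 0.44) in batch LC.

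Of the remaining carriers, Slc25a45 rose in both batches. It had 11.5, 10.8 and 11.3 CPM in labelled shRNA hearts of batch LC, against 5.88, 5.79 and 6.26 CPM in controls, and 10.6, 11.1 and 10.8 CPM in those of batch LA, against 6.97, 6.47 and 6.28 CPM in controls. Groups were apart in both (0.91 ± 0.08 and 0.72 ± 0.08, adjusted p = 1.55e-08 and 3.92e-07). Slc25a46, an outer membrane protein of mitochondrial fusion rather than a transporter, fell by 0.75 and 0.74. Slc25a39, which imports glutathione, fell by 0.50 and 0.35, and the mitoferrin Slc25a28 by 0.43 and 0.39. The 3 uncoupling-protein relatives went different ways: Slc25a14 rose in both batches, by 0.49 ± 0.19 and 0.64 ± 0.19, and Slc25a27 fell in both, by 0.43 ± 0.14 and 0.37 ± 0.14. Slc25a30 was called higher in batch LC (0.38 ± 0.10, adjusted p = 0.00351) and had 0.18 ± 0.10 (adjusted p = 0.137) in batch LA. Leaving out single libraries ended the call of Slc25a14 in batch LC in 4 of 6 cases, and that of Slc25a27 in 2 of 6 in batch LC and 4 of 6 in batch LA. Slc25a43, at 2 to 24 counts a library, was called higher in batch LA alone.

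**Figure D3:**
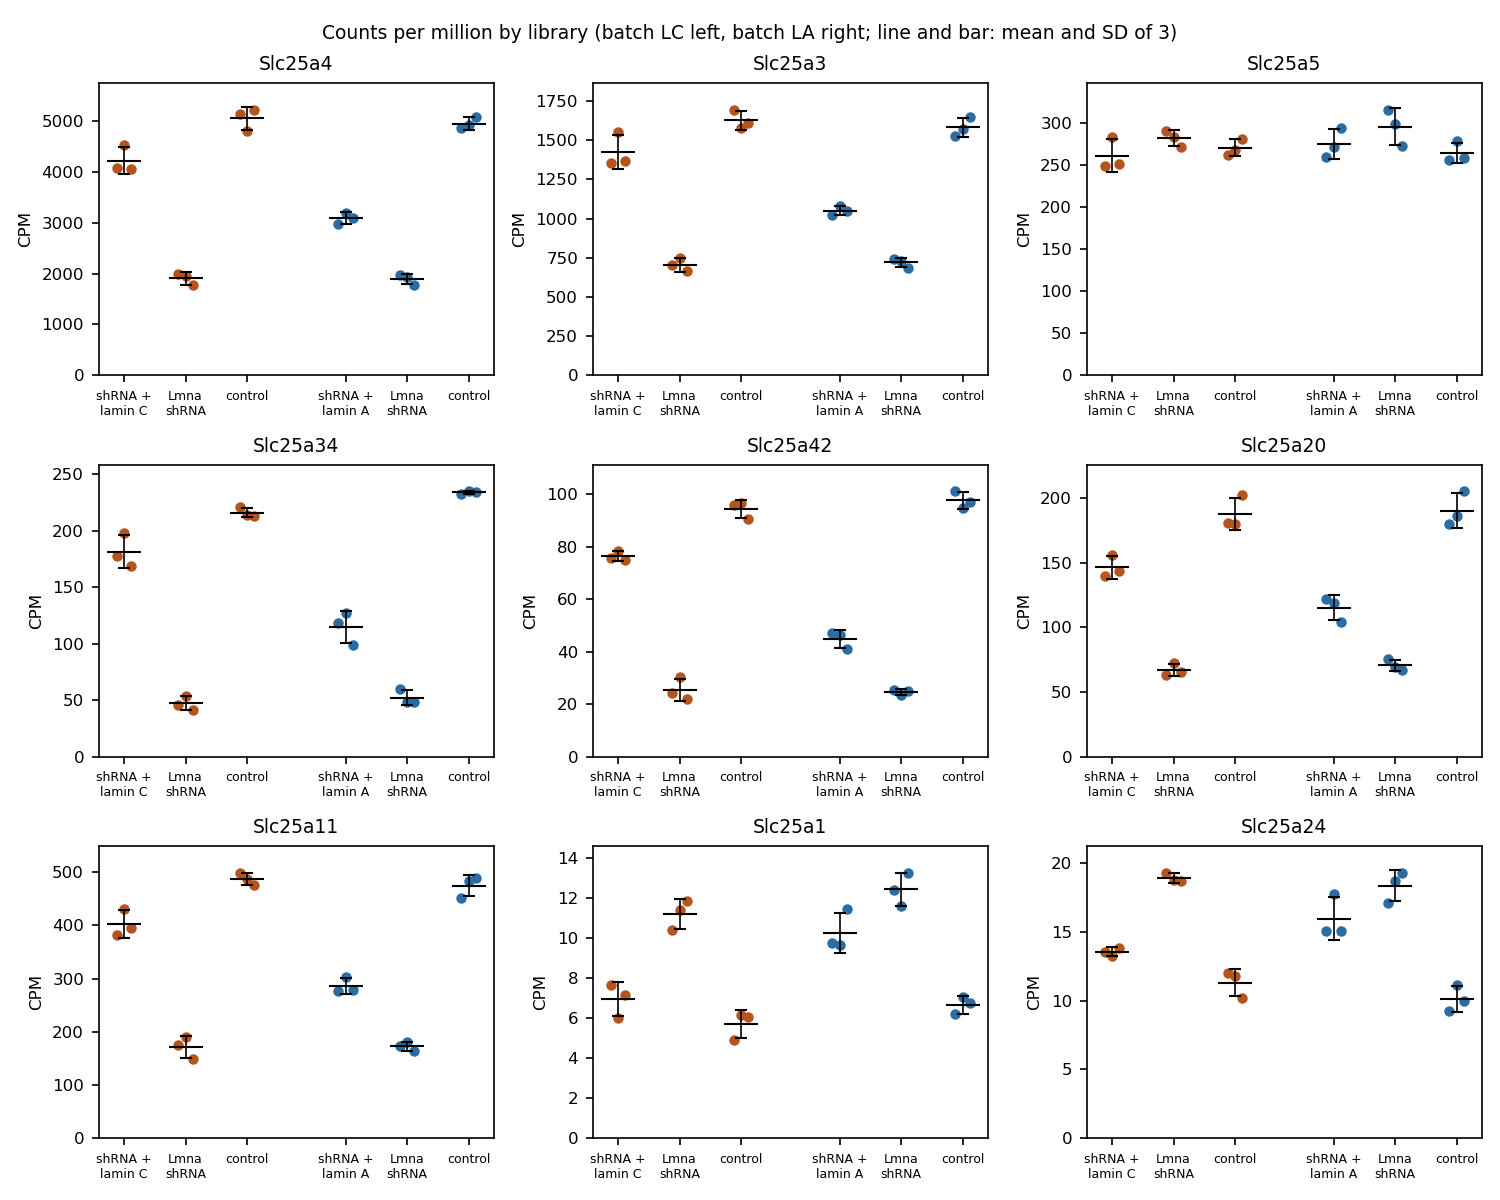
CPM (y axis, from 0) of 9 carriers in each of the 18 libraries; points are libraries, black lines and bars the mean and SD of 3, with batch LC on the left and batch LA on the right of each panel. Slc25a4, Slc25a3, Slc25a34, Slc25a42, Slc25a20 and Slc25a11 are lowest in hearts labelled Lmna shRNA in both batches, Slc25a5 overlaps between groups, and Slc25a1 and Slc25a24 are highest in hearts labelled Lmna shRNA.

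The falls of the carriers ran beside movements of other mitochondrial genes, further than the carriers' median in some lists and not in others. Of all genes tested, 29.6% fell and 33.3% rose in batch LC, and 29% fell and 32.4% rose in batch LA. All 22 nuclear-encoded respiratory chain genes fell in both batches, with a median of -1.14 in batch LC and -1.07 in batch LA, as did 15 of 15 ATP synthase genes and 14 of 14 citric acid cycle genes. The import route that inserts the carriers had 9 of 10 genes lower in both batches, with a median of -0.50 and -0.46. Timm29 (-0.72 ± 0.06 and -0.65 ± 0.06) and Timm9 (-0.61 ± 0.08 and -0.48 ± 0.08) were among them. In the malate-aspartate and glycerol phosphate shuttles 5 of 7 genes fell, among them the aspartate aminotransferases Got1 (-1.25 ± 0.06 and -1.19 ± 0.06) and Got2 (-1.17 ± 0.06 and -1.03 ± 0.06). Of 21 other proteins of mitochondrial membrane transport, 14 fell, such as the outer membrane channel Vdac1 (-0.97 ± 0.06 and -0.88 ± 0.05), and 4 rose, such as Sfxn3, a serine transporter of the inner membrane (1.17 ± 0.09 and 1.14 ± 0.09). The creatine kinase list held 3 that rose, with Ckmt1 steepest from a low level, and 2 that fell, Ckmt2 (-1.53 ± 0.08 and -1.38 ± 0.08) and Ckm (-2.13 ± 0.16 and -1.89 ± 0.15). Of 4 tested family members that carry other symbols, 2 fell and 2 rose in both batches: Ucp3 (-2.10 ± 0.24 and -2.86 ± 0.24) and Mtch2 (-0.65 ± 0.05 and -0.57 ± 0.05) fell, while Ucp2 (0.62 ± 0.11 and 0.55 ± 0.11) and Mtch1 (0.22 ± 0.05 and 0.28 ± 0.05) rose.

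**Figure D4:**
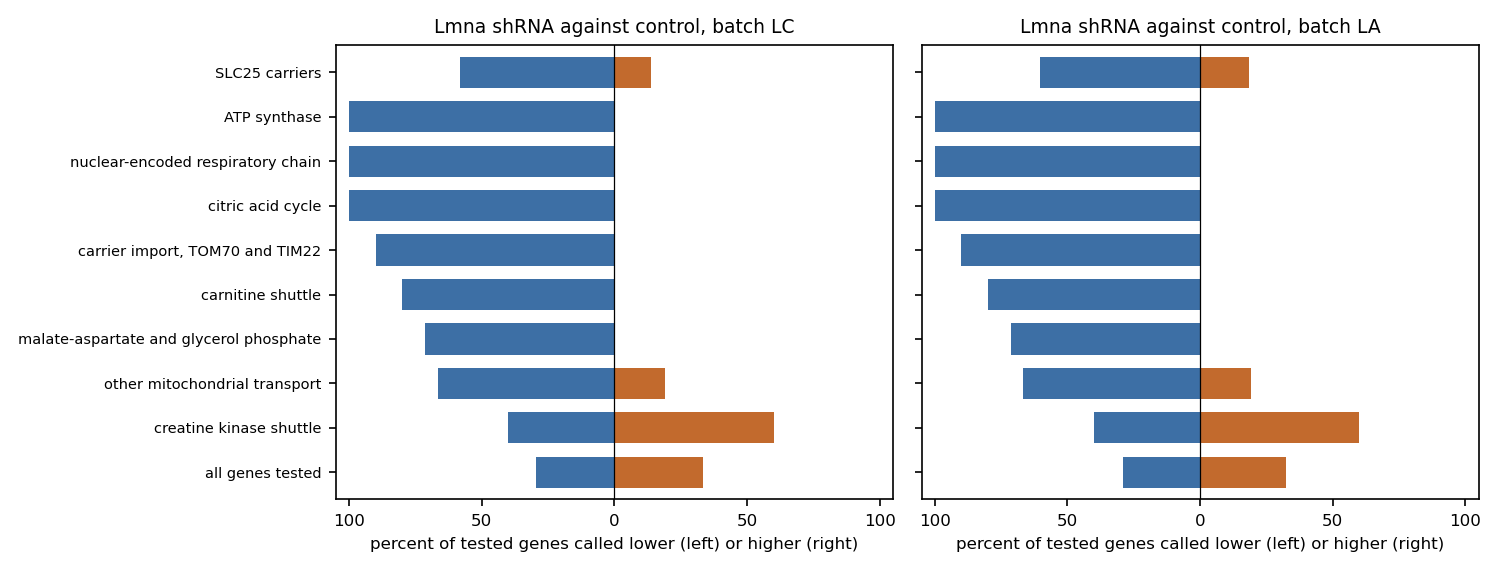
Share of tested genes called lower (bars to the left) and higher (bars to the right) in hearts labelled Lmna shRNA against controls, for the 43 SLC25 carriers, 8 lists of mitochondrial genes and all 17876 genes tested, in batch LC and batch LA. ATP synthase, respiratory chain and citric acid cycle genes reach 100 percent lower in both batches, and the carriers reach 58.1 and 60.5 percent lower with 14 and 18.6 percent higher.

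Summed over the family, carriers made up 0.55% ± 0.03 of nuclear-encoded counts in labelled shRNA hearts of batch LC, against 1.08% ± 0.03 in controls, and 0.56% ± 0.02 in those of batch LA, against 1.07% ± 0.02 in controls (SD, n = 3 each). Relative to the respiratory chain the family's summed FPKM was 0.435 to 0.461 in labelled shRNA hearts of batch LC, against 0.452 to 0.471 in controls, with overlap (exact two-sided permutation test, p = 0.3). In batch LA it was 0.437 to 0.447 in labelled shRNA hearts, against 0.459 to 0.469 in controls, without overlap (exact p = 0.1, the smallest possible). Without Slc25a4 the ratio turned: 0.183 to 0.2 in labelled shRNA hearts of batch LC, against 0.156 to 0.16 in controls, and 0.190 to 0.195 in those of batch LA, against 0.157 to 0.16 in controls. Slc25a4 thus fell further than the respiratory chain sum, and the summed rest of the family less far. That rest includes Slc25a5, which averaged 167 FPKM in labelled shRNA hearts of batch LC, against 161 FPKM in controls. In batch LA it averaged 175 FPKM, against 157 FPKM in controls. The sum therefore does not describe each of the other carriers.

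Markers of several cell types moved as well. The 10 cardiomyocyte markers all fell in both batches, and their summed level was 11300 to 12900 FPKM in labelled shRNA hearts, against 25200 to 27100 FPKM in controls over both batches. Fibroblast markers rose in 9 of 10 cases in each batch, with 1 lower in batch LA (summed 1300 to 1430 FPKM in labelled shRNA hearts, against 618 to 737 FPKM in controls), and macrophage markers in 10 of 10 (872 to 1040 FPKM in labelled shRNA hearts, against 234 to 306 FPKM in controls). Markers of other cells fell as well: 10 of 10 endothelial markers in batch LC and 9 of 10 in batch LA (166 to 212 FPKM in labelled shRNA hearts, against 257 to 314 FPKM in controls), with medians of -0.56 and -0.52, and 5 of 5 erythroid markers in both. T and NK cell markers rose in 8 of 8 cases in batch LC and 7 of 8 in batch LA. Of 8 smooth muscle and pericyte markers 4 rose and 3 fell, and of 5 tested adipocyte markers 2 rose and 1 fell, in each batch. Beside these counts, 33.3% of all genes rose and 29.6% fell in batch LC, and 32.4% rose and 29% fell in batch LA. The part of cell composition in the carriers' falls was not tested. Relative to the summed cardiomyocyte markers, Slc25a4 was 0.063 to 0.069 in labelled shRNA hearts of batch LC, against 0.077 to 0.084 in controls, and 0.061 to 0.065 in those of batch LA, against 0.080 to 0.082 in controls. Neither pair overlapped. The markers themselves fell unequally in labelled shRNA hearts against controls. Log2 fold changes ran from -0.37 (Mybpc3) to -1.89 (Atp2a2) in batch LC, and from -0.30 (Actc1) to -1.73 (Tnni3) in batch LA. The fall of Slc25a4 lay inside both ranges, with some markers falling further and others less far. Its ratio to the sum therefore depends on which markers weigh most in that sum. The share of counts from mitochondrially encoded genes moved as well, at 13 to 15.6% in labelled shRNA hearts against 25.2 to 27% in controls.

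The labelled shRNA effect was compared directly between the batches. Of the 43 carriers, 0 differed between batches in their labelled shRNA effect under edgeR (0.00559% of all genes, which is 1 gene) and 0 under DESeq2. At an unadjusted p under 0.05 there were 2: Slc25a22 (0.42, 95% interval 0.15 to 0.69) and Slc25a23 (-0.19, 95% interval -0.37 to -0.02). The share of all genes at that unadjusted p is not given, so these 2 cannot be read against all genes. For Slc25a4 the difference was -0.02 (95% interval -0.20 to 0.16), for Slc25a34 -0.03 (-0.32 to 0.26) and for Slc25a42 0.10 (-0.15 to 0.35).

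With lamin C added, 23 of the 43 carriers were higher than in hearts labelled Lmna shRNA alone (25.7% of all genes were) and 6 were lower (28.4% of all genes). The carriers' median was 0.43, beside -0.04 for all genes. On library totals the split was 17 higher and 14 lower, with the median of all genes at -0.36. Slc25a34 had 178, 198 and 169 CPM with lamin C, against 45.9, 54.1 and 41.8 CPM without (1.94 ± 0.10, adjusted p = 3.93e-11). Slc25a42 had 75.7, 78.5 and 75.0 CPM with lamin C, against 24.5, 30.3 and 22.0 CPM without (1.58 ± 0.08, adjusted p = 4.48e-11). Neither pair of groups came near to overlap.

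The energy carriers rose with them. Slc25a4 had 4071, 4535 and 4064 CPM with lamin C, against 1995, 1958 and 1767 CPM without (1.15 ± 0.06, adjusted p = 5.3e-11). Slc25a3 gave 1.02 ± 0.06, Slc25a11 1.23 ± 0.07 and Slc25a20 1.13 ± 0.08 (adjusted p = 1.46e-10, 1.39e-10 and 4.93e-10). Slc25a29 had 8.96, 9.17 and 8.04 CPM with lamin C, against 4.23, 3.25 and 3.36 CPM without (1.26 ± 0.18, adjusted p = 9.13e-06). Of the carriers that had been high, Slc25a1 fell to 7.66, 6.01 and 7.18 CPM with lamin C, against 10.4, 11.4 and 11.9 CPM without (-0.69 ± 0.11, adjusted p = 2.57e-05), Slc25a24 by 0.48 ± 0.08 and Slc25a45 by 0.41 ± 0.08. Slc25a25 did not fall with them (0.16 ± 0.13, adjusted p = 0.312). Slc25a5 was not called (-0.11 ± 0.07, adjusted p = 0.167), but on library totals it was lower (-0.43, adjusted p = 5.07e-06).

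With lamin A added, 16 of the 43 were higher than in hearts labelled Lmna shRNA alone (16.1% of all genes were) and 0 were lower (13.7% of all genes). Of the carriers, DESeq2 called 1 lower. At an unadjusted p under 0.05, for which no share of all genes is given, 3 carriers were lower. The median was 0.16, beside -0.003 for all genes, and on library totals 11 were higher and 11 lower, with the median of all genes at -0.20. Slc25a34 had 118, 127 and 99.1 CPM with lamin A, against 59.8, 48.4 and 48.6 CPM without (1.14 ± 0.10, adjusted p = 2.32e-07). Slc25a42 had 47.1, 46.3 and 40.9 CPM with lamin A, against 25.4, 23.5 and 25.3 CPM without (0.86 ± 0.08, adjusted p = 6.08e-07). Both moved to a level between the labelled shRNA hearts and the controls.

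Slc25a4 had 2979, 3203 and 3100 CPM with lamin A, against 1970, 1936 and 1774 CPM without (0.71 ± 0.06, adjusted p = 2.45e-07). Slc25a11 gave 0.72 ± 0.07, Slc25a20 0.70 ± 0.08 and Slc25a3 0.54 ± 0.06 (adjusted p = 9.34e-07, 1.65e-06 and 2.61e-06). None of these groups overlapped. Slc25a29 had 3.18, 3.31 and 3.84 CPM with lamin A, against 2.71, 2.95 and 3.66 CPM without, and the groups overlapped (0.15 ± 0.20, adjusted p = 0.62). Slc25a1 (-0.27 ± 0.11, adjusted p = 0.0587), Slc25a24 (-0.20 ± 0.08, adjusted p = 0.0736) and Slc25a45 (-0.11 ± 0.08, adjusted p = 0.34) were not called. Slc25a1 was called lower under DESeq2 (adjusted p = 0.0484) and without lamin A heart 3 (0.0319), and Slc25a24 without lamin A heart 2 (0.0271). On library totals all 3 were called lower. Between the batches, which share no library, 15 carriers rose with both lamins (14.1% of all genes did). A further 8 were called higher with lamin C and not called with lamin A (11.5% of all genes), and 1, the folate carrier Slc25a32, the other way round (1.73% of all genes).

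Set against controls, hearts with lamin C retained a small deficit. There 9 of the 43 carriers were lower (6.18% of all genes were) and 2 higher (8.87% of all genes), with a median of -0.12 beside 0.002. Slc25a4 had 4071, 4535 and 4064 CPM with lamin C, against 5144, 4806 and 5228 CPM in controls (-0.26 ± 0.06, adjusted p = 0.00775). Among the larger called falls of carriers that reached 5 CPM were Slc25a20 (-0.36 ± 0.08, adjusted p = 0.00324) and Slc25a13 (-0.33 ± 0.08, adjusted p = 0.0107). Slc25a34 gave -0.25 (95% interval -0.45 to -0.05, adjusted p = 0.0931). Of the 2 called higher, Slc25a25 had 13.7, 12.2 and 13.4 CPM with lamin C, against 9.61, 8.98 and 7.34 CPM in controls (0.60 ± 0.14, adjusted p = 0.00573). The other, Slc25a45, had 7.76, 9.15 and 8.34 CPM with lamin C, against 5.88, 5.79 and 6.26 CPM in controls (0.50 ± 0.09, adjusted p = 0.00074). Slc25a24 and Slc25a1 were not called here, but on library totals both were called higher (0.37, adjusted p = 0.00635, and 0.39, adjusted p = 0.0348).

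That set of calls rested on few libraries. Without the first lamin C library 4 carriers were called in place of 11, with Slc25a4 at an adjusted p of 0.0506, Slc25a11 at 0.0902 and Slc25a13 at 0.0525. Without the third lamin C library 7 were called. The same Slc25a4, Slc25a3, Slc25a11, Slc25a12, Slc25a13, Slc25a42 and Slc25a46 lost their call on library totals, where 6 carriers were called, 4 higher and 2 lower. Without the third control of batch LC, Slc25a29 was called lower (-0.59, adjusted p = 0.00629), against -0.36 ± 0.17 (adjusted p = 0.19) with it. Slc25a20, Slc25a25 and Slc25a45 kept their calls without any 1 library and on library totals.

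Hearts with lamin A stayed further from their controls. There 24 of the 43 were lower (22.1% of all genes were) and 5 higher (24.1% of all genes), with a median of -0.32 beside 0.02. On library totals, which moved the median of all genes to 0.26, 15 were lower and 13 higher. Slc25a42 had 47.1, 46.3 and 40.9 CPM with lamin A, against 101, 94.8 and 97.3 CPM in controls (-1.13 ± 0.08, adjusted p = 2.58e-09). Slc25a34 had 118, 127 and 99.1 CPM with lamin A, against 232, 235 and 234 CPM in controls (-1.03 ± 0.10, adjusted p = 7.3e-08), and Slc25a29 gave -1.01 ± 0.19 (adjusted p = 0.000202). All lamin A libraries lay below all controls in these 3.

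Slc25a4 had 2979, 3203 and 3100 CPM with lamin A, against 4857, 4915 and 5088 CPM in controls (-0.68 ± 0.06, adjusted p = 4.55e-08). Slc25a20 gave -0.72 ± 0.08 (adjusted p = 2.32e-07) and Slc25a3 -0.59 ± 0.06 (adjusted p = 2.21e-07). Slc25a24 had 15.1, 17.7 and 15.1 CPM with lamin A, against 9.23, 11.1 and 9.99 CPM in controls (0.66 ± 0.09, adjusted p = 4.45e-06). The citrate carrier Slc25a1 had 9.76, 9.68 and 11.5 CPM with lamin A, against 6.21, 7.05 and 6.74 CPM in controls (0.63 ± 0.11, adjusted p = 0.00013), and Slc25a45 gave 0.61 ± 0.08 (adjusted p = 7.52e-06). All 3 stayed above every control. Slc25a25 was also called (0.36 ± 0.14, adjusted p = 0.0392) but lost the call without control 1 (adjusted p = 0.0721), control 3 (0.162), lamin A heart 1 (0.164) or lamin A heart 2 (0.0906).

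The difference between the 2 lamins was tested directly, as the change with lamin C minus the change with lamin A, each against labelled shRNA hearts of its own batch. Of the 43 carriers, 14 had the larger change with lamin C (8.84% of all genes had) and 0 the smaller (9.9% of all genes), and DESeq2 also called 0 smaller. At an unadjusted p under 0.05, for which no share of all genes is given, 4 carriers had the smaller change. The median was 0.27, beside -0.01 for all genes. On library totals 8 were higher and 3 lower. For Slc25a34 the difference was 0.80 (95% interval 0.51 to 1.1, adjusted p = 0.00056), for Slc25a42 0.72 (0.47 to 0.97, adjusted p = 0.000364) and for Slc25a4 0.44 (0.25 to 0.62, adjusted p = 0.00176). Slc25a29 had the widest gap among called carriers, 1.12 ± 0.27 (adjusted p = 0.00651). For Slc25a5 it was -0.01 (-0.21 to 0.19, adjusted p = 0.97).

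Relative to controls, the lamin C difference minus the lamin A difference was positive for 11 carriers (7.29% of all genes) and negative for 1 (7.35% of all genes), with a median of 0.23 beside -0.006. Slc25a42 (0.82 ± 0.12, adjusted p = 0.000174) and Slc25a34 (0.78 ± 0.14, adjusted p = 0.00102) led again, followed by Slc25a22 (0.60 ± 0.13, adjusted p = 0.00403), whose controls differed in level between batches. The negative one was Slc25a24 (-0.40 ± 0.12, adjusted p = 0.0368), which lost its call without any of the 3 lamin C libraries, without control 1 or 2 of batch LC, without control 1 or 3 of batch LA and without lamin A heart 2. Without 1 library, 8 to 12 carriers were called.

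Marker genes differed between the lamins too. In the change with lamin C minus the change with lamin A, 7 of 10 cardiomyocyte markers were higher and 0 lower. Each change was taken against labelled shRNA hearts of its own batch. There 10 of 10 macrophage and 8 of 10 fibroblast markers were lower and 0 higher, while 8.84% of all genes were higher and 9.9% lower. Summed cardiomyocyte markers were 22200 to 23600 FPKM with lamin C and 17200 to 17900 FPKM with lamin A, against 11300 to 12900 FPKM in labelled shRNA hearts over both batches. Macrophage markers were 441 to 518 FPKM with lamin C and 863 to 922 FPKM with lamin A. Lmna itself was 1.21 ± 0.12 log2 units further up with lamin C than with lamin A (adjusted p = 3.6e-06). The lamin groups thus differ in reads counted as Lmna as well as in isoform and batch. The part of each in the carriers' difference was not tested. The respiratory chain moved alongside: 22 of 22 genes rose with each lamin (14.1% of all genes rose with both), and 18 of 22 rose further with lamin C. Relative to that chain, the carriers without Slc25a4 stood at 0.159 to 0.165 with lamin C, overlapping the 0.156 to 0.16 of its controls (exact two-sided permutation test, p = 0.2), and at 0.167 to 0.169 with lamin A, above the 0.157 to 0.16 of its controls (exact p = 0.1, the smallest possible).

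Slc25a29 and Slc25a47 lie side by side. In the deposited table Slc25a29 (chr12:108825873-108835883, minus strand) and Slc25a47 (chr12:108836046-108856815, plus strand) are 162 bases apart and point away from each other, although RefSeq places the start of Slc25a47 15083 bases further in. Slc25a47, described as liver-enriched, had 3.07, 2.93 and 3.08 CPM in labelled shRNA hearts of batch LC, against 5.59, 5.86 and 4.65 CPM in controls. It fell with its neighbour in both batches (-0.82 ± 0.15 and -0.70 ± 0.15, adjusted p = 6.29e-05 and 0.000371). On library totals Slc25a47 lost that call in batch LA. With lamin C it rose by 0.72 ± 0.15 (adjusted p = 0.000311), and with lamin A it had 0.28 ± 0.15 (adjusted p = 0.172). Slc25a29 was likewise called with lamin C and not with lamin A. In the direct test of lamin C against lamin A, however, Slc25a29 was called and Slc25a47 was not.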

How the data were processed

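Polyadenylated RNA of heart apex was made into directional libraries, per the labels' protocols. The submitters' processing notes name DESeq2 1.20.0, StringTie 1.3.3b, featureCounts 1.5.0-p3, HISAT2 2.0.5 and the build mm10, without roles. The count values were deposited by the authors as unscaled integers per gene. The FPKM values were deposited by the authors and equal the count per kilobase over an adjusted library size, 0.879 to 1.23 times the deposited total; they were used to compare levels between genes and for ratios.

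Counts of all 18 libraries were fitted together as 6 groups with edgeR 4.0.16 (R 4.3.3) after filterByExpr, with TMM factors, the quasi-likelihood F test (glmQLFit, glmQLFTest) and Benjamini-Hochberg adjustment over 17876 genes at 0.05. In all, 9 contrasts were tested; SE is the log2 fold change over the root of F. CPM uses TMM-scaled totals. Alternatives were DESeq2 1.42.0, limma 3.58.1 on log2(FPKM + 1) and log2(FPKM + 0.1), other scalings and filters, and left-out libraries. Members named singly were the 4 most abundant, the 3 largest called rises and falls per contrast from 5 CPM, and the energy carriers; others complete their roles, chosen after their values were seen. In the counts, 1 tested carrier is included that is not reported here. Members and lists were chosen with earlier results of these data known. The sources used here do not say if counting used the strand. Replicate pairs differed by more than counting noise (chi-square per degree of freedom 6.38 to 43.4).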

Additional observations from a re-analysis of the deposited data

Results flagged for a closer look

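The direct test of lamin C against lamin A found carriers whose change differed between the 2 batches. Relative to hearts labelled Lmna shRNA, the log2 change with lamin C exceeded that with lamin A by 1.12 for Slc25a29, 0.80 for Slc25a34, 0.72 for Slc25a42, 0.60 for Slc25a33, 0.59 for Slc25a12, 0.51 for Slc25a11, 0.47 for Slc25a3, 0.44 for Slc25a4, 0.42 for Slc25a20, 0.39 for Slc25a38, 0.37 for Slc25a13, 0.28 for Slc25a51 and 0.27 for Slc25a16. Of the 14 carriers called in this test, 8 were called in every fit that left out 1 library and on library totals; Slc25a13, Slc25a16, Slc25a33, Slc25a38 and Slc25a51 were not.

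Relative to controls, the lamin C difference exceeded the lamin A difference by 0.82 for Slc25a42, 0.78 for Slc25a34, 0.60 for Slc25a22, 0.60 for Slc25a33, 0.46 for Slc25a12, 0.46 for Slc25a11, 0.42 for Slc25a4, 0.40 for Slc25a3, 0.37 for Slc25a20 and 0.36 for Slc25a16, and was -0.40 for Slc25a24. In Slc25a33 the spread was wide: the second lamin C library had 36.9 CPM beside 27.0 and 23.2 CPM, and its call in either test was lost without several single libraries. Relative to controls, Slc25a16, Slc25a20 and Slc25a33 also lost their call on library totals. Slc25a20 and Slc25a24 lost theirs without several single libraries.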

How the results depend on the processing

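Over 9 contrasts the number of called carriers stayed within 1.5 times its main value in most fits. One exception was lamin C against control, with 6 on library totals in place of 11. The fits without the first or without the third lamin C library were exceptions in that comparison too. The other was the difference between the batches in the labelled shRNA effect. There 1 carrier, Slc25a22, was called with no filter on low counts in place of 0. Leaving out 1 library gave 4 to 12 carriers for lamin C against control, and 29 to 32 and 31 to 33 for the labelled shRNA effect in batch LC and batch LA. On library totals Slc25a32 and Slc25a37 turned from lower to higher in both labelled shRNA comparisons; no other called carrier turned. In the labelled shRNA effect, 26 of 31 calls in batch LC and 30 of 34 in batch LA held without any 1 library. Replicate numbers do not pair the hearts (45 same-number pairs, correlation of deviations -0.104 to 0.139, 3 over 0.1); with the number as a replicate block, 32 carriers were called for labelled shRNA in batch LC and 33 in batch LA. Depth limits the carriers under about 30 counts a library, Slc25a2, Slc25a18, Slc25a31 and Slc25a43.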
